A study of Homo sapiens with 6 samples.

Results

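The replication-dependent histone genes, which the deposited files list under their older cluster symbols (HIST1H to HIST4H), were compared between HEK293 cells grown beside cells that make reactive oxygen species (ROS) and control HEK293 cells. HEK293 is an established human embryonic kidney cell line. Genes were taken when the symbol began with HIST1H, HIST2H, HIST3H or HIST4H and the gene had at least 10 reverse-strand reads in at least 3 of the 6 RNA-seq libraries. Of 23686 genes in the files, 73 carried such a symbol and 19 of these passed the read minimum. By type, the 19 were 1 linker histone H1 gene, 6 H2A genes, 9 H2B genes, 2 H3 genes and 1 H4 gene.

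All 6 libraries came from HEK293 cells marked with GFP and recovered by fluorescence-activated sorting. The co-culture group (n = 3) had been grown for 10 h with partner HEK293 cells that carry DAAO (D-amino acid oxidase), which turns D-alanine into its keto acid and gives off hydrogen peroxide. The control group (n = 3) was made of GFP-marked HEK293 cells labelled Wt controls, sorted in the same way. The labels give 25 µM D-alanine and the co-culture text for every sample, so whether the controls also received D-alanine cannot be read from them. The labels do not say whether replicates were separate cultures, so p-values measure the spread between these samples, which may be technical. Since the partner cells are also HEK293 cells, marker genes cannot show whether any of them passed the sort.

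Histones are the proteins around which DNA is wound: H2A, H2B, H3 and H4 form the core of the nucleosome, and H1 binds the linker DNA between nucleosomes. The cluster genes are transcribed mainly in S phase, when new DNA has to be packed. Their mRNAs normally end in a short stem-loop instead of a poly(A) tail: the stem-loop is bound by SLBP, cleavage just after it needs the U7 small nuclear RNA, and the mRNA is degraded when DNA synthesis stops. Some cluster genes also make polyadenylated mRNAs from a signal farther downstream. The libraries were made with a stranded mRNA kit, and poly(A) selection is the usual entry step of such kits, so what was measured here may be the polyadenylated part of each gene's RNA.

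The stem-loop is shown because it is what sets these mRNAs apart, and because several genes with reads had gene models that run on to a second end. The forms below were read from GENCODE release 29 transcript models, which are not the gene set behind the counts. Each is printed 5′ to 3′ on the transcript strand as DNA letters, with the 16 bases of the stem and loop in capitals and 5 bases on either side.

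HIST1H2AC: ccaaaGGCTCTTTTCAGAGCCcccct
HIST2H2BE: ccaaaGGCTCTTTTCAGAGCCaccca
HIST3H2A: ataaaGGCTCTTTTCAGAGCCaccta
HIST1H2BD: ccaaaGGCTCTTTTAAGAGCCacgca
HIST1H3E: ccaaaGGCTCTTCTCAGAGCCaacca
HIST1H2AG: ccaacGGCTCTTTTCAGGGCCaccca
HIST1H4H: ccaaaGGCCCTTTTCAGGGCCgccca

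A pattern of 16 letters, with fixed bases at most positions and any base allowed at the others, was searched on the transcript strand. The forms above are matches to this pattern, so they share its fixed bases by construction. The pattern was found in transcripts of 33 of the 73 histone genes and of 15 of 57060 other genes (0.0263%). The other genes are all GENCODE genes outside the 73, so they may include histone genes under other symbols. In 24 of the 33 histone genes a transcript model ran at least 100 bases past the stem-loop, and 11 of these 24 were among the 19 genes with enough reads. In another 9 genes the model stopped within that distance, and 3 of the 9 were among the 19. The remaining 40 genes had models without the pattern, and 5 of the 19 genes were of this kind, including HIST1H2BK (381 bases) and HIST1H1C (642 bases). A model without the pattern says only that these letters are not in that model.

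For 3 genes with a longer model, the last part of that model is shown with the poly(A) signal in capitals, since it is where a polyadenylated form could end. HIST1H2AC ran 1128 bases past its stem-loop, HIST2H2BE 1729 bases and HIST1H3H 769 bases. The stretch around the signal lies close to the end of each model.

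HIST1H2AC poly(A) site: catgaggtAATAAAaggtaatgcaaaggga
HIST2H2BE poly(A) site: ttgttattAATAAAgttaccaattaattta
HIST1H3H poly(A) site: tatgactaAATAAAatctgtataatcccca

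Of the 24 histone genes with such longer models, 17 had AATAAA or ATTAAA in the last 50 bases. HIST1H4H, the H4 gene, was 1 of them, with 1655 bases after the stem-loop. HIST1H2BG and HIST3H2BB had longer models of 1059 and 1917 bases past the stem-loop with neither signal in that window.

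Reads from histone cluster genes were few and concentrated. The 73 genes together had 15628 reverse-strand reads in the 6 libraries, and the 19 genes above the minimum held 95.9% of them. HIST1H2BK, a core H2B gene, took 41.6% and HIST1H1C, a somatic linker histone gene, took 26.4%, together 68%. HIST3H2A followed with 7.24% and HIST2H2BE with 5.45%. Shares of reads are not shares of transcripts, because they were not divided by gene length. By type, H2B genes held 55.2% of the histone reads, H1 genes 26.8%, H2A genes 13.1%, H3 genes 3.22% and H4 genes 1.65%.

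**Figure D1:**
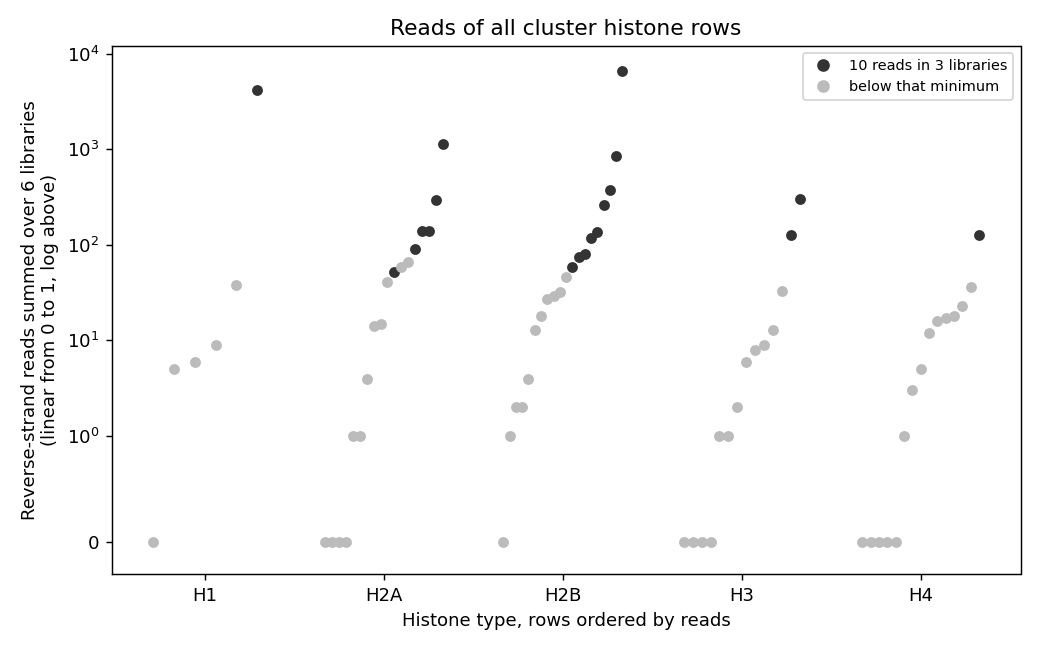
Reverse-strand reads summed over the 6 libraries for each of the 73 histone genes, ordered within each type; the vertical axis is linear from 0 to 1 and logarithmic above. Dark points are the 19 genes with at least 10 reads in at least 3 libraries, and HIST1H2BK stands highest with 6502 reads, while 15 genes lie at 0.

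Of the other 54 genes, 15 had no reverse-strand read in any library, 19 had between 1 and 9 reads in all, and 20 had 10 or more without meeting the minimum. HIST1H1B and HIST3H3, both among the 15, had 83 and 6 reads on the opposite strand. Their listed 0 was therefore not taken as a measure of level, and the source of these reads was not tested. For the others, a count of 0 allows up to 3 reads per library, which corresponded to 0.0838 to 0.156 CPM (counts scaled to the library's total with TMM factors). For 5 of the 15 genes at 0 (among them HIST2H4A, HIST2H4B, HIST2H3A and HIST2H3C), no stretch of 50 bases in the longest GENCODE model was free of a copy in another gene, so reads of that length from this model could not be assigned to a single gene. At the read minimum, HIST1H2AM lay just inside with 10, 9 and 7 reads in co-culture and 5, 10 and 11 in control. HIST2H2AC lay just outside with 9, 4 and 23 reads in co-culture and 8, 8 and 14 in control.

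Histone cluster reads were lower in the co-culture libraries. Summed over all 73 genes, the level was 90.1, 93.0 and 95.6 CPM in the 3 co-culture libraries and 137.8, 128.2 and 125.2 CPM in the 3 controls. The groups did not overlap, and the co-culture mean (92.9 ± 2.72 CPM, SD, n = 3) was 28.8% below the control mean (130.4 ± 6.58 CPM, SD, n = 3). In bulk RNA, fewer cells that express a gene and less RNA per cell cannot be told apart. No test was run on these sums.

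**Figure D2:**
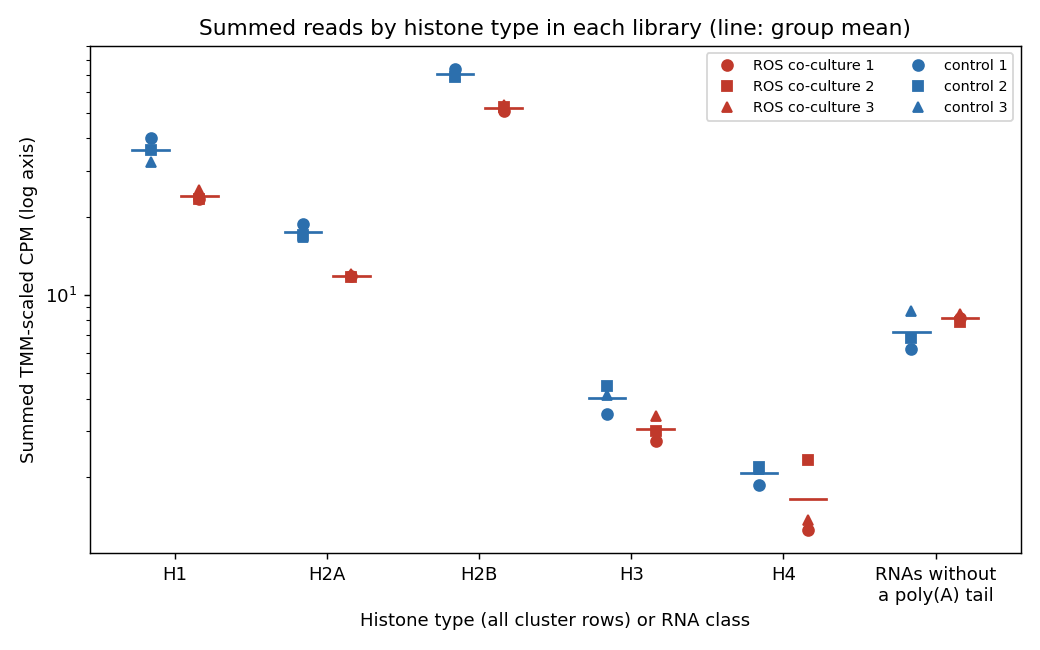
Summed CPM of each histone type in each library, and of RNAs that lack a poly(A) tail, on a logarithmic axis, with a line at each group mean. Control libraries lie above co-culture libraries for H1, H2A, H2B and H3, while the groups overlap for H4 and for the RNAs without a poly(A) tail.

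H1 genes summed to 23.3, 23.4 and 25.2 CPM in co-culture and 40.0, 35.9 and 32.5 CPM in control, a co-culture mean 33.7% lower. H2A genes summed to 11.9, 11.7 and 12.01 CPM in co-culture and 18.7, 17.1 and 16.7 CPM in control, 32.3% lower. H2B genes summed to 50.9, 52.6 and 53.6 CPM in co-culture and 73.7, 68.5 and 69.7 CPM in control, 25.9% lower. For these types the lowest control library lay above the highest co-culture library. H3 genes gave 2.75, 2.99 and 3.44 CPM against 3.49, 4.49 and 4.14 CPM, so that the groups nearly touched. H4 genes gave 1.25, 2.33 and 1.37 CPM against 1.87, 2.19 and 2.15 CPM, and here co-culture 2 was the highest of all 6 libraries.

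The difference was not carried by HIST1H2BK and HIST1H1C alone. Without them the other 17 genes summed to 24.9, 25.9 and 24.5 CPM in co-culture and 39.5, 37.2 and 36.2 CPM in control, 33.3% lower in co-culture. The 54 genes below the read minimum summed to 3.70, 4.04 and 3.97 CPM against 4.80, 4.43 and 5.98 CPM, again without overlap.

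Of the 19 genes, 16 passed the count filter of the test, and HIST1H2BC, HIST3H2BB and HIST1H2AM did not. By edgeR's quasi-likelihood test with Benjamini-Hochberg adjustment over all 14582 tested genes at 0.05, 4 of the 16 were lower in co-culture (25%, against 2.17% of all tested genes) and 0 were higher (against 2.66%). The 4 were HIST1H2BK, HIST1H1C, HIST2H2BE and HIST1H2AC. At an unadjusted p under 0.05, 7 of the 16 were lower, against 11.5% of all tested genes. By the DESeq2 and limma-voom alternatives, 4 were also lower and 0 higher. The count fell to 0 without co-culture 1, co-culture 2 or control 2. It also fell to 0 with a term for the class of forward-strand share, set from these data and described with the library measures. All 16 fitted log2 fold changes were below 0 (against 50.4% of all tested genes, and 15 of 16 by limma-voom), with a median of -0.52 and a range of -1.48 to -0.04, where the median over all tested genes was 0.00. The CPM of the groups did not overlap for 10 of the 16, each with co-culture lower, against 15% of all tested genes.

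**Figure D3:**
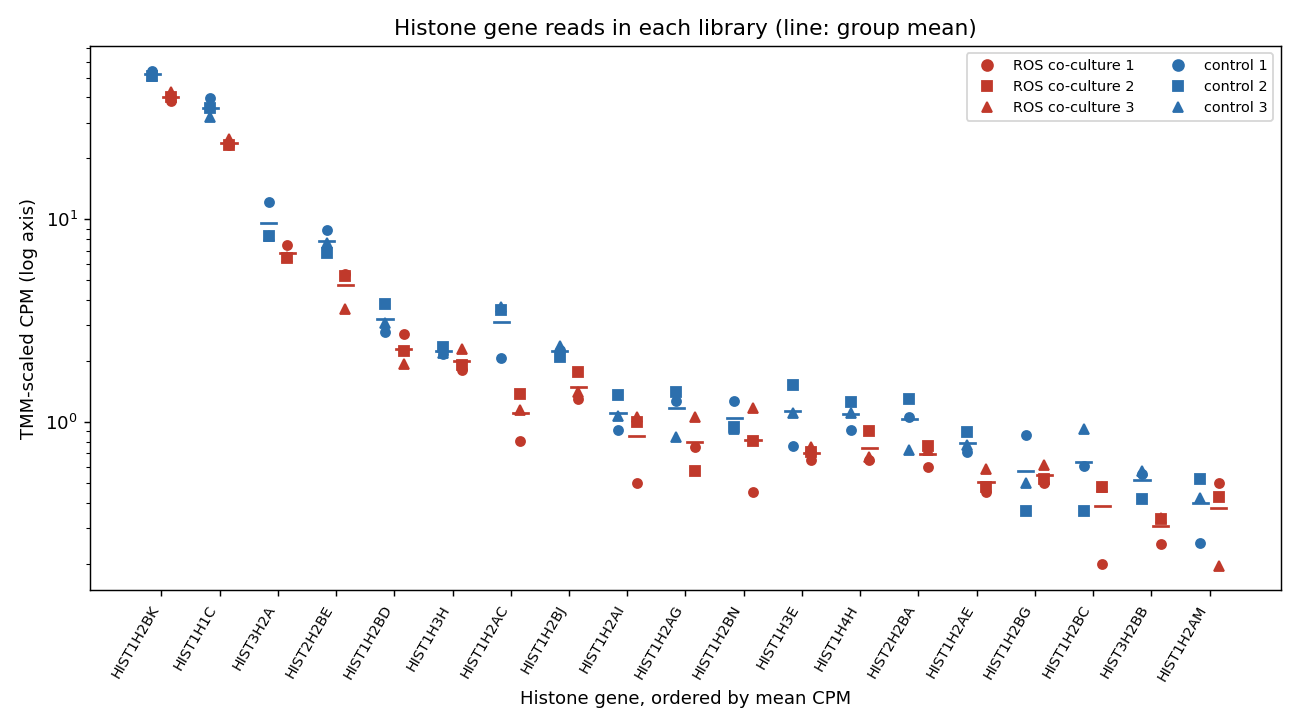
TMM-scaled CPM of the 19 histone genes in each of the 6 libraries on a logarithmic axis, ordered by mean, with a line at each group mean. Co-culture libraries lie below control libraries without overlap for HIST1H2BK, HIST1H1C, HIST3H2A and HIST2H2BE, and the genes at the right, near 0.4 CPM, overlap in part.

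**Figure D4:**
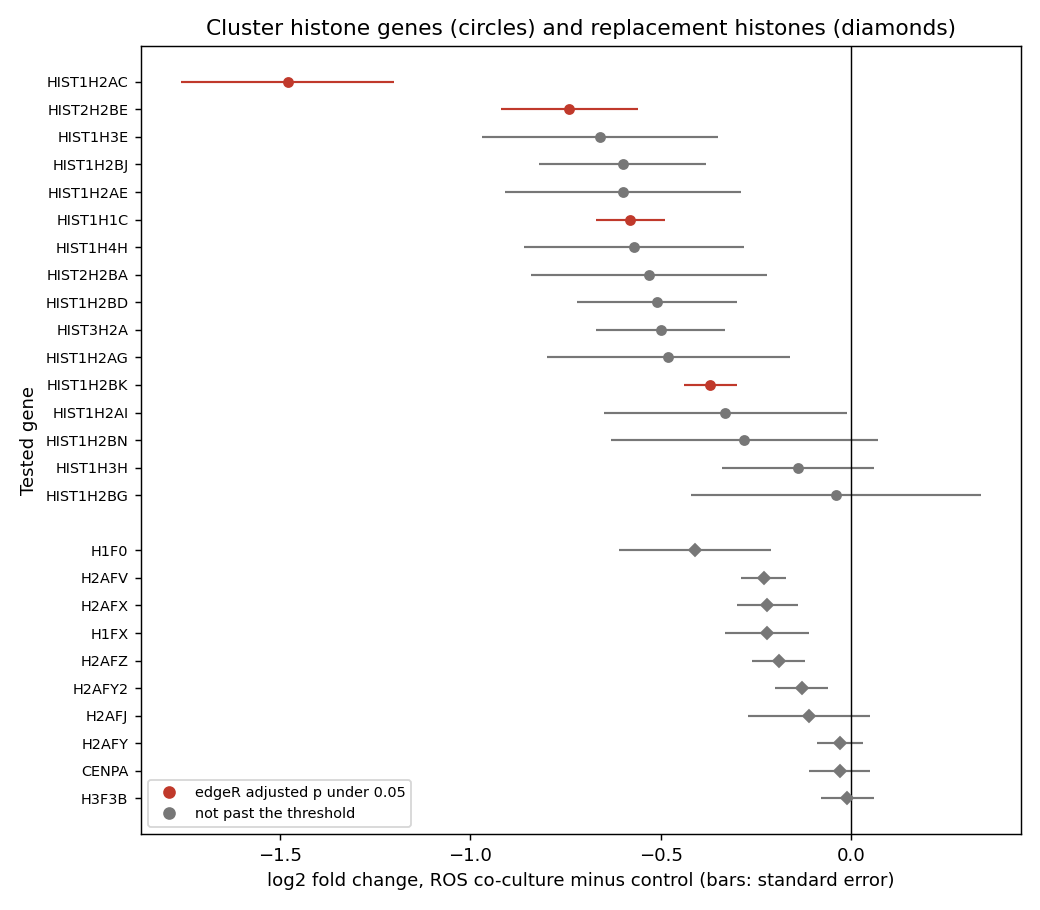
Fitted log2 fold change (co-culture minus control) of the 16 tested cluster histone genes (circles) and 10 replacement histone genes (diamonds), with bars of 1 standard error. Points in red had an adjusted p under 0.05, which 4 cluster genes and 0 replacement genes reached, and HIST1H2AC lies farthest from 0 at -1.48.

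HIST1H1C, the only linker histone gene above the minimum, fell by 0.58 on the log2 scale. It was at 23.2, 23.1 and 24.9 CPM in co-culture and at 39.5, 35.4 and 31.9 CPM in control. Every control library was above every co-culture library, and the controls were spread more widely. The log2 fold change was -0.58 (SE 0.09, edgeR adjusted p = 0.00669). The adjusted p rose to 0.0546 without co-culture 1, 0.0689 without co-culture 2 and 0.0557 without control 2. Another linker gene, HIST1H1E, stayed below the minimum with 2, 6 and 4 reads in co-culture and 10, 8 and 8 in control.

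HIST1H2BK, the histone gene with the most reads, changed least among the 4. It was at 38.3, 39.9 and 42.2 CPM in co-culture and 54.1, 51.2 and 51.1 CPM in control. The libraries of a group lay close together and the groups were well apart. The log2 fold change was -0.37 (SE 0.07, edgeR adjusted p = 0.0145), with control 1.30-fold above co-culture. It missed the threshold without co-culture 1 (adjusted p = 0.0961), co-culture 2 (0.109) or control 2 (0.0751). Of the 50-base stretches of its GENCODE model, 25.9% occur in no other gene. That model has 381 bases, while RefSeq gives the gene a span of 8566 bases on the genome, which may include introns. The annotation behind the counts is not given, so the unique share of the counted sequence is not known. Its reads may be uncertain in part, since H2B coding sequences are close copies and multimapping reads were left out of the counts.

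HIST2H2BE, an H2B gene of the smaller cluster on chromosome 1, was at 5.35, 5.23 and 3.60 CPM in co-culture and 8.89, 6.78 and 7.63 CPM in control. Co-culture 3 was the lowest library, and the groups did not overlap. The log2 fold change was -0.74 (SE 0.18, edgeR adjusted p = 0.0452), with control 1.64-fold above co-culture. Without co-culture 1, 2 or 3 the adjusted p was 0.118, 0.156 and 0.132, and without control 2 it was 0.119. With unstranded counts it was 0.0515. This call lay nearest to the threshold of the 4. Its model is long and mostly its own, with 91.9% of its 50-base stretches in no other gene.

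HIST1H2AC, a core H2A gene, showed the largest fold change of the 16. It was at 0.801, 1.38 and 1.15 CPM in co-culture and 2.07, 3.55 and 3.68 CPM in control, from 16, 29 and 41 reads against 41, 68 and 96 reads. Control 1 was the lowest control, yet it stayed above the highest co-culture library. The log2 fold change was -1.48 (SE 0.28, edgeR adjusted p = 0.0184), with control 2.80-fold above co-culture. The adjusted p was 0.104, 0.0797 and 0.067 without co-culture 1, 2 and 3, and 0.106 without control 2. Nearly all of its 50-base stretches (99.6%) occur in no other gene.

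The other H2A genes were not called. HIST3H2A, a core H2A gene of the third cluster, was at 7.46, 6.41 and 6.48 CPM in co-culture and 12.1, 8.29 and 8.29 CPM in control. The groups did not overlap, and control 1 stood above the other controls. The log2 fold change was -0.50 (SE 0.17, edgeR adjusted p = 0.107). HIST1H2AE did not overlap either, at 0.450 to 0.587 CPM against 0.708 to 0.887 CPM, at a fitted log2 difference of -0.60 (SE 0.31, adjusted p = 0.271). HIST1H2AG (-0.48, SE 0.32) and HIST1H2AI (-0.33, SE 0.32) overlapped between the groups. HIST1H2AI had 37.7% of its 50-base stretches to itself, and HIST1H2AM, untested at 0.387 CPM on average, had 13.7%.

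Among the H2B genes, HIST1H2BD and HIST1H2BJ also lay lower in every co-culture library without passing the threshold. HIST1H2BD was at 2.70, 2.23 and 1.93 CPM in co-culture and 2.78, 3.81 and 3.07 CPM in control, at a fitted log2 difference of -0.51 (SE 0.21, edgeR adjusted p = 0.181). HIST1H2BJ was at 1.30, 1.76 and 1.40 CPM against 2.27, 2.09 and 2.38 CPM, at a fitted log2 difference of -0.60 (SE 0.22, edgeR adjusted p = 0.13). Co-culture 1 nearly reached control 1 for HIST1H2BD, and the gap was wider for HIST1H2BJ. HIST2H2BA (-0.53, SE 0.31) and HIST1H2BN (-0.28, SE 0.35) overlapped. RefSeq lists HIST2H2BA as a transcribed pseudogene, and 26.6% of its 50-base stretches occur in no other gene. HIST1H2BG differed least, at 0.5004 to 0.615 CPM in co-culture and 0.365 to 0.859 CPM in control, at a fitted log2 difference of -0.04 (SE 0.38). With an approximate 95% interval of -0.78 to 0.70, taken from the SE, its reads leave room for a change of the size seen in other H2B genes. Of the untested H2B genes, HIST3H2BB was at 0.250 to 0.335 CPM in co-culture and 0.417 to 0.575 CPM in control without overlap, and HIST1H2BC overlapped.

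The H3 and H4 genes were thinly covered and none was called. HIST1H3H, a core H3 gene, was at 1.80, 1.90 and 2.29 CPM in co-culture and 2.17, 2.35 and 2.19 CPM in control. Co-culture 3 lay among the controls, and the log2 fold change was -0.14 (SE 0.20, edgeR adjusted p = 0.71). HIST1H3E, a second core H3 gene, was at 0.650, 0.713 and 0.754 CPM against 0.758, 1.51 and 1.11 CPM. Its highest co-culture library and its lowest control library almost met, and the log2 fold change was -0.66 (SE 0.31, edgeR adjusted p = 0.237). HIST1H4H, which encodes the core histone H4, was at 0.650, 0.903 and 0.670 CPM against 0.910, 1.25 and 1.11 CPM, at a fitted log2 difference of -0.57 (SE 0.29, edgeR adjusted p = 0.261).

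Promoters of the 4 called genes are shown because these genes were lower together. They were taken from RefSeq on GRCh38.p14, where the genes carry newer symbols and 18 of the 19 had a promoter entry. The 150 bases before the start are printed 5′ to 3′ on the gene's strand, and motifs, each searched on both strands, are in capitals. TATAAA is the TATA box that places the start. CCAAT is the box bound by the factor NF-Y. The octamer ATTTGCAT is bound by OCT1, and the box AAACACA is known from H1 genes. No different motifs overlapped.

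HIST1H2BK (H2BC12), chr6:27146859-27147008, minus strand: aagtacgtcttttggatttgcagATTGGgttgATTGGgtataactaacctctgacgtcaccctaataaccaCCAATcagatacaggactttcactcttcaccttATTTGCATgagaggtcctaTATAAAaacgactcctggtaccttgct
HIST1H1C (H1-2), chr6:26056471-26056620, minus strand: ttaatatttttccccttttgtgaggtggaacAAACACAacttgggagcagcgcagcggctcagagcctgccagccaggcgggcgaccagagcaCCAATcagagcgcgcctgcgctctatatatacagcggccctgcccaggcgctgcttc
HIST2H2BE (H2BC21), chr1:149886683-149886832, minus strand: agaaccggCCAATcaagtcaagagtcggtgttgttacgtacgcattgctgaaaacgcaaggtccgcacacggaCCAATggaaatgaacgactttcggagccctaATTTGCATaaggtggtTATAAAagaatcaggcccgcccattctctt
HIST1H2AC (H2AC6), chr6:26124022-26124171, plus strand: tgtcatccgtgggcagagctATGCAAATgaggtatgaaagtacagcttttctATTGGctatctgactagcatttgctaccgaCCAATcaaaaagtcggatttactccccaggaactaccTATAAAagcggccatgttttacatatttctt

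CCAAT was found in all 4 of these promoters and in 17 of the 18 (94.4%), against 23.5% of 35116 RefSeq promoters of the same length. It was also found in 100% of all H1, H2A, H2B and H3 genes with a promoter entry, and in 23.1% of such H4 genes. CCAAT therefore does not set the called genes apart from other histone genes of their types. TATAAA was found in 10 of the 18 (55.6%), against 6.71%, and by type in 44.4% to 68.8% of all histone genes with an entry. Among the 4 called genes HIST1H1C lacked these exact letters. The letters tatatata stand near the end of its printed promoter and were not searched, so it is not shown to lack a TATA box. The octamer was found in 7 of the 18 (38.9%), against 0.988%. It was present in 3 of the 4 called genes, the H2B genes HIST1H2BK and HIST2H2BE and the H2A gene HIST1H2AC. Its position from the start was -46 in HIST1H2BK and HIST2H2BE and -130, on the opposite strand, in HIST1H2AC. The HIST1H2AC site is also the octamer (at -123) of its neighbour HIST1H2BC, an H2B gene among the 18. The same site was thus counted for both genes in the 7. Of all H2B genes with a promoter entry, 77.8% held the octamer, and of all such H2A genes 31.2%. AAACACA was found in HIST1H1C and in 5 of 6 H1 genes with an entry, against 2.71% of all promoters. A match is a description of the letters and not evidence of binding.

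Many cluster genes stand head to head with a neighbour and share the sequence between them, yet reads were unequal within such pairs. HIST1H2BK had 6502 reads in all, and HIST1H2AH, whose start lies 331 bases away in GENCODE, had 15. HIST2H2BE had 851 reads and its partner HIST2H2AC had 66. HIST3H2A had 1131 and HIST3H2BB had 58. HIST1H2AC had 291 and HIST1H2BC had 74, and HIST1H2BJ had 260 where HIST1H2AG had 139. HIST1H2BG and HIST1H2AE came closest, with 80 and 91. Gene lengths and unique sequence differ within pairs, and their part in these reads was not tested.

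Typical replacement histones are made throughout the cell cycle from ordinary polyadenylated mRNAs outside the main clusters. The 14 genes listed here also include other histone variants, such as CENPA and H2AFX, and were not checked against that description. Of the 14, 10 were tested and 0 were called by edgeR in either direction, while DESeq2 called 1 lower. By edgeR, 3 were lower and 0 higher at an unadjusted p under 0.05. At that unadjusted p, 1671 of all 14582 tested genes were lower and 1706 higher, which is the background for this list and those below. All 10 log2 fold changes were below 0, with a median of -0.16 and a range of -0.41 to -0.01. H3F3B, which encodes the replacement H3, was at 696.5, 684.8 and 741.7 CPM in co-culture and 723.8, 736.3 and 674.0 CPM in control. These values overlapped, and the log2 fold change was -0.01 (SE 0.07, adjusted p = 0.96). H2AFZ, the H2A variant found at promoters, was at 494.1, 468.7 and 502.1 CPM against 576.3, 571.2 and 522.7 CPM, without overlap and at a fitted log2 difference of -0.19 (SE 0.07, adjusted p = 0.116). H1F0, the replacement linker histone, had a log2 fold change of -0.41 (SE 0.20, adjusted p = 0.286), with control 1 at 283.5 CPM and the other controls at 189.2 and 162.1 CPM. Whether cluster and replacement genes differed from each other was not tested. H3F3A, another replacement H3 gene, is listed at 0 on both strands in all 6 libraries. The gene annotation behind the counts is not given, so this 0 is not taken as a measure of its level.

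Genes that act on histone mRNA and histone proteins were followed beside them. Of 24 tested genes for histone mRNA processing and decay, 0 were called by edgeR (2 were lower and 2 higher at an unadjusted p under 0.05, and DESeq2 called 1 higher), and the median log2 fold change was -0.02. SLBP, the stem-loop binding protein, was at 87.8, 81.3 and 84.5 CPM in co-culture and 92.3, 84.9 and 81.6 CPM in control. The log2 fold change of SLBP was -0.03 (SE 0.07) and that of NPAT, the coactivator of cluster histone transcription, was 0.14 (SE 0.10, adjusted p = 0.418). SLBP and NPAT were singled out for their roles after their values were seen. SNRPB, a shared spliceosomal Sm protein, had a log2 fold change of -0.08 (SE 0.07), and SSB, the La RNA-binding protein, 0.25 (SE 0.08, adjusted p = 0.0923).

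Of 22 tested histone chaperones and partners, 2 were lower (9.09%, against 2.17% of all tested genes) and 0 higher (against 2.66%; 1 at an unadjusted p under 0.05, and 0 by DESeq2). HIRA, which deposits the replacement H3, was at 90.3, 95.7 and 104.4 CPM in co-culture and 115.9, 116.1 and 126.5 CPM in control, at a fitted log2 difference of -0.30 (SE 0.07, edgeR adjusted p = 0.0333). SUPT6H, an elongation factor that handles nucleosomes, was at 279.8, 280.1 and 290.2 CPM against 318.9, 343.1 and 364.3 CPM, at a fitted log2 difference of -0.27 (SE 0.07, edgeR adjusted p = 0.0406). Neither gene overlapped between the groups. HIRA missed the threshold without co-culture 1 (adjusted p = 0.162), co-culture 2 (0.176), control 2 (0.121) or control 3 (0.0566). SUPT6H kept its call without control 1 but missed the threshold without any other library (adjusted p 0.0787 to 0.198). RBBP7 (0.09, SE 0.08) and NAP1L1 (0.13, SE 0.06), the chaperones with the most reads, were not called.

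Of 34 tested genes of DNA replication and S phase, 0 were called by edgeR in either direction (3 were lower and 6 higher at an unadjusted p under 0.05, and DESeq2 called 1 higher), with a median log2 fold change of 0.00 and a range of -0.20 to 0.26. MCM3 and MCM7, subunits of the replicative helicase, had log2 fold changes of -0.06 (SE 0.06) and -0.09 (SE 0.07). Without control 1, 5 of the 34 were called higher and 1 lower, where 1558 of all 14734 tested genes were called higher and 1511 lower.

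RNAs that lack a poly(A) tail, such as small nucleolar and Cajal body RNAs, were read as a second view of non-polyadenylated RNA in these libraries. Of 34 such RNAs listed, 18 were found in the files, and SCARNA12, SNORD17 and SCARNA9 held 458, 327 and 144 of their 1111 reads. The 18 summed to 8.16, 7.89 and 8.44 CPM in co-culture and 6.22, 6.83 and 8.67 CPM in control. The groups overlapped, and the co-culture mean was the higher, unlike for the histone genes. Of these RNAs, 3 were tested and 0 called by edgeR (0 at an unadjusted p under 0.05, and 0 by DESeq2). Their log2 fold changes were 0.68 for SCARNA9, 0.47 for SNORD17 and -0.10 for SCARNA12. These RNAs do not end in the histone stem-loop, and the part of poly(A) selection in the histone difference was not tested.

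Library measures were read beside these results, and the groups overlapped in depth, forward-strand share and multimapping share. The libraries held 19091085 to 36250314 reverse-strand reads in genes. Of the 14582 tested genes, 704 were called (4.83%), 388 higher and 316 lower. The median share of reads on the forward strand, the strand opposite to the counted one, was 0.127% and 0.216% in co-culture 2 and 3 and 1.59% to 1.79% in co-culture 1 and the controls. Multimapping reads made up 6.83% to 8.42% of co-culture and 6.48% to 6.84% of control reads, and the part of this in the histone difference was not tested. All 6 HEK293 markers were tested, and VIM (0.40, adjusted p = 0.00793) and INA (0.38, adjusted p = 0.0118) were higher in co-culture, calls that VIM lost without co-culture 2 (0.0689) or control 2 (0.0594) and INA without co-culture 1 (0.0571), co-culture 2 (0.0919) or control 2 (0.0773). With the forward-strand class as a term, both missed the threshold (adjusted p = 0.198 for VIM and 0.235 for INA). The 8 markers of other cell types summed to 0.104 to 0.505 CPM with overlapping groups, and CD3E was at 0 in every library.

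With the class of forward-strand share as a term in the edgeR fit, the comparison rests on co-culture 1 against the 3 controls. Then 0 of the 16 histone genes were called (6 at an unadjusted p under 0.05) and 29 of all genes were, while all 16 log2 fold changes stayed below 0 with a median of -0.68. Leaving out co-culture 1, co-culture 2 or control 2 also left 0 histone genes called, with 123, 74 and 65 calls among all genes. Without co-culture 3, 2 histone genes were called, and without control 1 the count was 5, with HIST1H2BD added and 3069 calls among all genes.

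**Figure D5:**
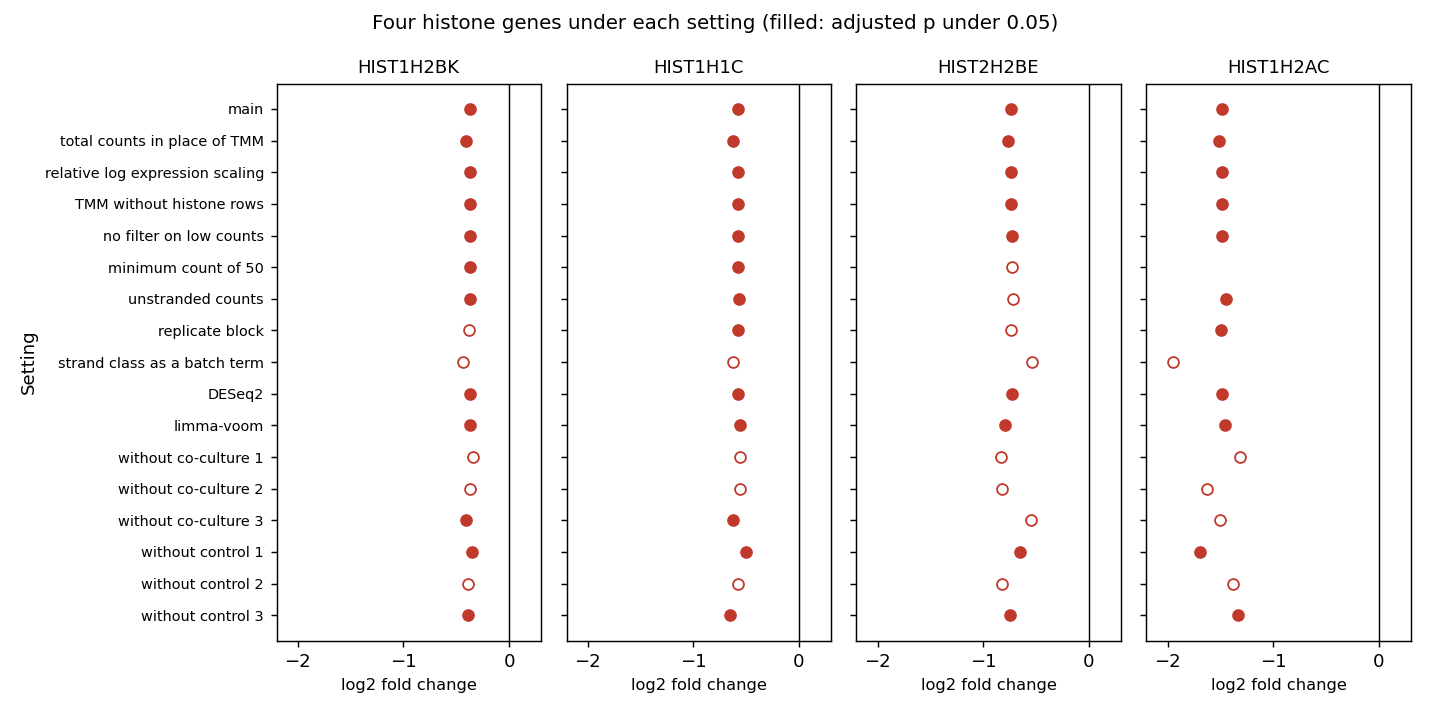
Log2 fold change of HIST1H2BK, HIST1H1C, HIST2H2BE and HIST1H2AC in the reported fit (top) and under 16 other settings, filled where the adjusted p was under 0.05; HIST1H2AC was not tested at a minimum count of 50. Every point lies below 0, and HIST1H1C kept its call in 12 of 16 settings while HIST2H2BE kept it in 8.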

How the data were processed

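The authors deposited, for each of 6 samples, raw read counts per gene (unstranded, forward and reverse strand) in the layout of STAR's gene counting. The submitters' processing notes name STAR 2.53a, FastQC and hg18, with no roles. Per the labels' protocols, TriPure served for RNA extraction and an Illumina stranded mRNA kit for the libraries. The gene annotation is not given in the sources used here. Reverse-strand counts were used. STAR counts no multimapping read per gene, so near-identical histone copies are undercounted.

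Groups came from the sample titles. Libraries of a group differed beyond sampling noise (chi-square per degree of freedom 4.56 to 17.7), so none was counted as the same library sequenced again. The closest pairs were co-culture 1 and 2 (4.58) and control 2 and 3 (4.56). Separate preparations of 1 culture could also differ this way, so technical repeats are not excluded. edgeR 4.0.16 (R 4.3.3) was run with filterByExpr at a minimum count of 10 (14582 of 23686 genes kept), TMM scaling, robust quasi-likelihood F tests and Benjamini-Hochberg adjustment at 0.05. SE is the absolute log2 fold change over the square root of F. CPM are TMM-scaled, and 1 read was worth 0.0279 to 0.0522 CPM. Floors for counts of 0 cover counting error only, since no molecular identifiers are recorded. The fit was tested on simulated data, where unchanged genes made up a larger share of the calls than the nominal 0.05. Calls near the threshold are therefore less certain than their adjusted p implies.

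Histone genes were named so as to account for every one of the 19. For the lists, the named genes were those past the threshold and the 2 with the highest CPM. H1F0, SCARNA9, SLBP and NPAT fall outside that rule and were named after their values were seen. Members and lists were chosen with earlier results of these data known, and so was the strand class. Stem-loops and 50-base stretches came from GENCODE release 29 and promoters from RefSeq. All 73 histone symbols matched GENCODE and RefSeq names. Alternatives were other scalings (total counts, relative log expression), filters, tools (DESeq2 1.42.0, limma-voom of limma 3.58.1), strands, blocks and each library left out.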

Additional observations from a re-analysis of the deposited data

Results flagged for a closer look

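HIST1H1B, a linker histone gene that is not among the 19, had 83 reads on its forward strand and 0 on the counted reverse strand. The forward reads were 15, 12 and 20 in co-culture and 13, 10 and 13 in control, so they were present in every library. The 0 on the counted strand is therefore given no bound from depth. It stood out because its signal lies in a column that the comparison did not use.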

How the results depend on the processing

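Of the 16 alternatives, none called a histone gene higher. The number of histone genes called lower was 4 in the reported fit, 3 with unstranded counts, 2 at a minimum count of 50 (where 5 were tested) and 0 with the strand class as a term. Leaving out 1 library gave 0 to 5. The total of called genes was 704 in the reported fit, 29 with the strand class, and 65 to 3069 with 1 library left out. With total counts in place of TMM it was 882, of which 35.1% were higher in place of 55.1%, and the median gene lay at -0.04.

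Replicate numbers did not pair the samples: deviations of same-numbered samples correlated at -0.042, -0.085 and -0.091. With the replicate block, 164 genes, 2 histone genes and 0 chaperones were called. The adjusted p was then 0.0657 for HIST1H2BK and 0.0904 for HIST2H2BE, and 0.0642 for the marker INA.

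The calls were held in 12 of 16 alternatives for HIST1H1C (adjusted p 1.5e-05 to 0.164, log2 fold change -0.65 to -0.50), 11 of 16 for HIST1H2BK (0.000982 to 0.171, -0.44 to -0.34), 10 of 15 for HIST1H2AC (6.28e-05 to 0.178, -1.95 to -1.31) and 8 of 16 for HIST2H2BE (0.0112 to 0.458, -0.83 to -0.54). The median over histone genes was -0.68 with the strand class and -0.58 to -0.40 with 1 library left out, the highest without control 2. HIST1H2BG turned positive at 0.03 (limma-voom), 0.02 (without co-culture 1) and 0.33 (without control 1), in a range of -0.26 to 0.33 with 1 library left out. H3F3B turned positive at 0.01 without co-culture 1 or control 1 and at 0.02 without co-culture 2 or control 2 (range -0.04 to 0.02). SCARNA12 turned positive at 0.13 without control 3 (range -0.26 to 0.13). In each case the cause was not tested.

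Among the lists, 1 replacement histone was called lower with total counts, a minimum count of 50 or DESeq2, and 0 to 2 with 1 library left out. Processing and decay genes gave 1 higher with DESeq2, and 0 to 2 lower and 0 to 1 higher with 1 library left out. Chaperones gave 0 lower with the strand class, and 0 to 3 lower and 0 to 1 higher with 1 library left out. S phase genes gave 1 higher with no filter or DESeq2, and 0 to 1 lower and 0 to 5 higher with 1 library left out. A minimum of 10 reads in all 6 libraries would keep 13 of the 19 histone genes. Depth limits the genes near 0.4 CPM, 3 of which were not tested.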
